A study of Zea mays with 45 samples.

Results

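Leaves of Arrocillo, a maize landrace, were set against leaves of the inbred line W23 on 4 two-colour spotted cDNA arrays, out of 45 arrays in a study of maize and ultraviolet-B (UV-B) radiation. The 4 were chosen by their titles, which name Arrocillo and W23 as the pair hybridised together. On 2 arrays both lines had received supplementary UV-B, and on the other 2 neither line had received UV-B. Within each treatment W23 was in channel 1 on the array called the first here and in channel 2 on the array called the second. The first array with UV-B is labelled W23 and the other 3 are labelled W23 b,pl, after b and pl, regulatory genes of anthocyanin pigment. The stocks were treated as 1 line. Age of the plants, length of exposure and number of plants per RNA sample are not given in the labels of these arrays. A treatment and a line cannot be separated from whatever else differed between the RNA samples, and the arrays of a treatment may hold the same RNA labelled again, so p-values measure only the spread between arrays. Another 8 arrays, 4 of Cacahuacintle and 4 of Conico, both landraces, against W23, were fitted with them.

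UV-B damages DNA and the photosystems, and plants answer it with flavonoid and other phenolic sunscreens, antioxidant enzymes and repair. Maize fixes carbon through the C4 cycle, in which mesophyll cells feed carbon dioxide to Rubisco in bundle sheath cells, and the sugars made there are turned into sucrose or starch.

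Each value was a log2 ratio per probe, the mean of 3 spots, centred on the median of its array. Which RNA was divided by which is not given in the labels. Values are said to lie on the positive or the negative side, and no line is said to hold more RNA. Fewer cells of a type, less RNA per cell and a sequence of the line that binds the probe less well cannot be told apart. If the ratio were taken the same way on every array, a difference between lines would keep its sign when the channels are exchanged, and if it followed the channels the sign would turn. Both patterns were present at similar size. The mean of the arrays of opposite channel order had an SD over probes of 0.31 with and 0.31 without UV-B, and their difference divided by 2 had an SD of 0.29 and 0.27. Arrays of opposite order correlated at r = 0.06 with and 0.16 without UV-B, whereas arrays of the same order correlated across the treatments at 0.54 and 0.53. Across the treatments, arrays of opposite order correlated at 0.36 (second with, first without UV-B) and -0.16 (first with, second without UV-B). These are correlations across probes, which are not independent. Below, the ratio is read the same way on every array and a channel term takes up what turned. Values under the other reading are given where they matter. Under that other reading, values that keep their sign would go with the dyes and probes and not with the lines. Calls made with every ratio read the same way would then not be line differences. Which reading holds was not tested.

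The line difference, the mean of the ratios with and without UV-B, was largest among named genes for a sugar isomerase on the positive side and for LOC541942 and a thiamine enzyme on the negative side. Called probes of sugar and starch metabolism were positive in 7 of 8 cases. Called probes of thiamine synthesis, defence and the light reactions were negative in 7 of 8. Those of chaperones and disulfide isomerases (3 of 4) and of translation (2 of 2) were also mostly negative. Of all 45 called probes with a gene name, 26 were negative. Probes of the same gene are not separate cases. The 8 calls of sugar and starch metabolism came from 5 genes, with 3 of the calls from phi1 and with ivr2 called on both sides. With the sign turned by channel order the calls were 0 of 24 probes of sugar and starch metabolism and 0 of 6 of thiamine synthesis. They were 0 of 13 probes of defence and 1 of 8 of the light reactions, beside 323 of 5353 of all probes. In lists this small few or no calls are near that share. In all, 439 of 5353 probes passed (8.2%, limma, Benjamini-Hochberg adjusted p under 0.05 over all probes), 243 positive (4.54%) and 196 negative (3.66%). Of 310 named genes 39 passed, 16 positive and 23 negative. Positive probes made up 55.4% of the calls, and 43.0% of 286 calls when the arrays were not centred. The count fell to 153 without the first and 194 without the second array without UV-B. With the sign turned by channel order 323 probes were called, of which 14 were among the 439. The largest named genes were also chosen for having the same sign on every array. Of the 39 called genes, 31 were picked by the naming rule given with the processing. Of these 31, 7 kept the call under every processing setting tried other than the turned sign. They were LOC541942, cda1, ivr2, psei2, rca1, see1 and thi2. The 439 probes were mostly unnamed. The largest positive ones were the probes spotted at positions 14968 to 14970 and 2193 to 2195 (2.00 and 1.52), and the largest negative ones those at 12976 to 12978 and 15591 to 15593 (-2.68 and -2.64).

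**Figure D1:**
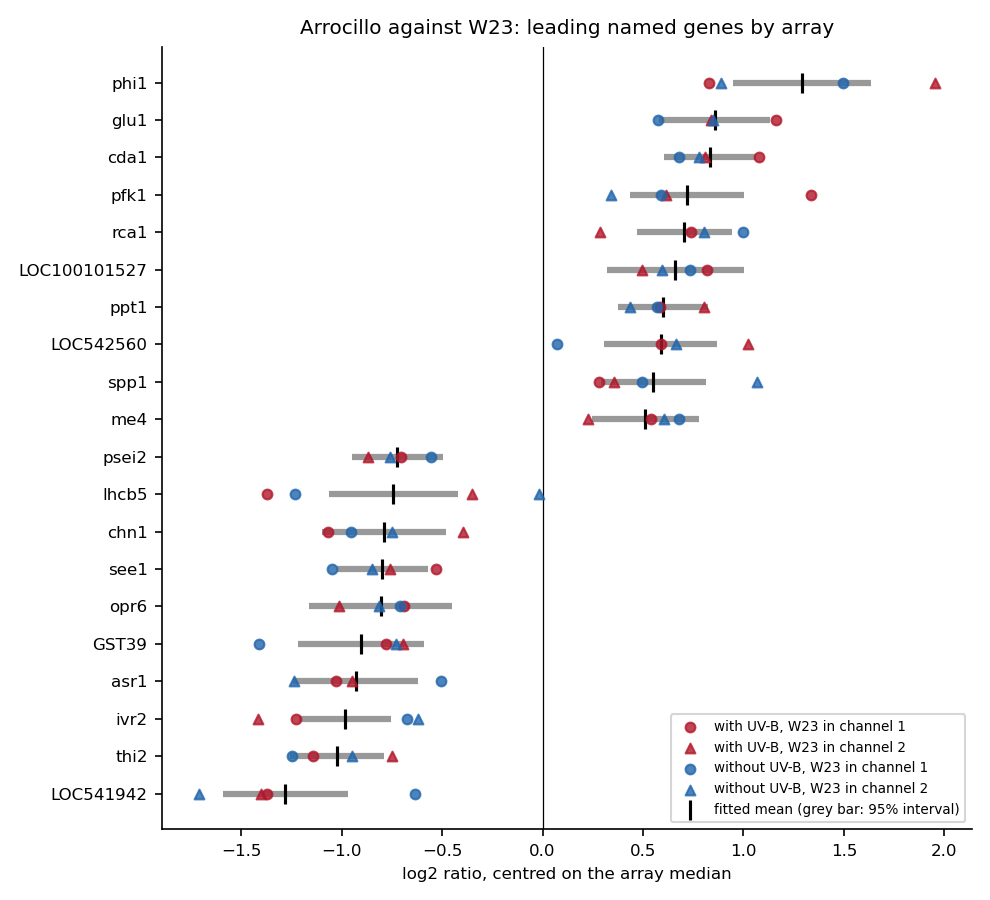
Centred log2 ratio of the 20 named genes with the largest line difference, 10 on each side, on the 4 Arrocillo arrays. Colour gives the treatment and shape the channel of W23. The tick is the fitted mean and the grey bar its 95% interval. All 4 points of a gene lie on the same side of 0, which was a condition for being shown, and lhcb5 reaches from -1.37 to -0.02.

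With every ratio read the same way, sugar and starch metabolism had the most calls of any gene list and also the most probes tested. By share of probes called, chaperones and disulfide isomerases stood higher (40.0%) and thiamine synthesis equal (33.3%). Sugar and starch metabolism had 8 calls among 24 probes from 16 genes, 7 positive and 1 negative. That is 33.3% of its probes, beside 8.2% of all, and its median was 0.15, beside -0.0019 for all probes. With the sign turned it had none, beside 323 of 5353 of all probes, and signalling and nitrogen assimilation had the most, with 2 each. The 8 calls of sugar and starch metabolism came from 5 genes, 3 of the calls from phi1 and 2 from ivr2. The leading gene was phi1, the phosphohexose isomerase that interconverts glucose 6-phosphate and fructose 6-phosphate. On its leading probe phi1 stood at 0.83 and 1.95 on the arrays with UV-B and at 1.49 and 0.89 on those without. All 4 values were on the positive side, and the treatments overlapped. Its line difference was 1.29 (SE 0.16, a 2.45-fold ratio, adjusted p = 0.00029 by limma). The other probes of phi1 were also called, at 1.28 and 0.69. The call of the leading probe remained without each of the 4 arrays (1.00 to 1.58) and was lost without moderation of the variances (adjusted p = 0.0571).

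The phosphofructokinase gene pfk1, which acts one step after phi1 in glycolysis, stood at 1.34 and 0.61 with UV-B and at 0.59 and 0.34 without. Its line difference of 0.72 (SE 0.13) passed at an adjusted p of 0.00393 in limma, and its call was lost without either array without UV-B (0.73 and 0.71, adjusted p = 0.0504 and 0.0503). The sucrose phosphatase gene spp1, which completes sucrose synthesis, stood at 0.55 (SE 0.12), but at 0.37 without the second array without UV-B, where its call was lost, as it was without the second array with UV-B (0.52). Its other probe stood at 0.16 and did not pass. The gene sh2, a subunit of ADP-glucose pyrophosphorylase of starch synthesis, was called at 0.42 (SE 0.11). The starch genes Agp2 (-0.01 and 0.05 on its probes) and ae1 (-0.22 and 0.14) did not pass. Of the genes of sucrose cleavage and transport, sus1 (0.19 and -0.07 on its probes), sus2 (0.07) and sut1 (-0.03) did not pass.

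The vacuolar invertase gene ivr2, which splits stored sucrose, was the only gene called on both sides. Its leading probe stood at -1.23 and -1.42 with UV-B and at -0.67 and -0.62 without. Its other probe stood at 0.56 and 0.35 with UV-B and at 1.21 and 0.99 without. Each probe kept its side on all 4 arrays, and on both probes the arrays with UV-B lay below those without. The line differences were -0.98 (SE 0.11, adjusted p = 0.000113 by limma) and 0.78 (SE 0.13, adjusted p = 0.0023). Since its probes disagreed, no side is given for ivr2 as a gene.

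In photosynthesis, genes of carbon fixation that passed were on the positive side and genes of the light reactions that passed were on the negative side. Of 8 probes of carbon fixation and the C4 cycle 2 were called (25.0%, beside 8.2% of all probes), both positive, with a list median of 0.15. The probes of that list ranged from -0.18 to 0.71. Of 8 probes of the light reactions 2 were called (25.0%), both negative, with a list median of -0.17. The probes of the light reactions ranged from -0.74 to 0.55, and the one at 0.55 was not called. The Rubisco activase gene rca1 stood at 0.74 and 0.29 with UV-B and at 1.00 and 0.81 without. The arrays without UV-B were the higher ones and all 4 were positive. Its line difference was 0.71 (SE 0.11, 1.63-fold, adjusted p = 0.00147 by limma), and the call remained without each of the 4 arrays. The malic enzyme gene me4 was called at 0.51 (SE 0.12), a call lost without the first array with UV-B (0.37) or either array without UV-B (0.44 and 0.58). The Rubisco small subunit gene ssu1, at 0.24 and -0.24 with UV-B and 0.41 and 0.17 without, had a line difference of 0.14 (SE 0.10) and did not pass. The pyruvate phosphate dikinase gene pdk1 of the C4 cycle did not pass at 0.33 (SE 0.17). Its first array with UV-B stood apart at -0.38 beside 0.86, 0.46 and 0.37, and without it pdk1 was called at 0.67 (adjusted p = 0.0172), while without the second array with UV-B it was at -0.02.

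The light-harvesting gene lhcb5, whose protein binds chlorophyll at photosystem II, stood at -1.37 and -0.35 with UV-B and at -1.23 and -0.02 without. The arrays with W23 in channel 1 were the more negative ones under both treatments. Its line difference was -0.74 (SE 0.15, adjusted p = 0.007 by limma), and its value with the sign turned by channel order was -0.56 (adjusted p = 0.044), so that lhcb5 was called under both readings. Its call was lost without the first array with UV-B (-0.60, adjusted p = 0.062) and without the first array without UV-B (-0.54, adjusted p = 0.147). The ferredoxin-thioredoxin reductase gene ftr1, which passes reducing power from photosystem I to enzymes of the chloroplast, was called at -0.64 (SE 0.11). That call was lost without the first array without UV-B (-0.60, adjusted p = 0.0505). The light-harvesting gene Cab-m7 lay on the negative side on all 4 arrays (-0.49 and -0.26 with UV-B, -0.16 and -0.31 without) and did not pass at -0.30 (SE 0.14, adjusted p = 0.217). It passed without the second array with UV-B (-0.50, adjusted p = 0.0496), stood at -0.10 without the first, and passed with sections of the array centred (-0.34, adjusted p = 0.0257). The photoprotection gene psbs1, whose protein lets photosystem II shed excess light as heat, stood at 0.07 (SE 0.12) and did not pass.

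Thiamine synthesis held the largest negative values of any list. Of the 6 probes of thi1 and thi2, genes for the thiazole synthase of vitamin B1, 2 were called (33.3%, beside 8.2% of all probes). Both were of thi2 and negative, and the list median was -0.19. The probe of thi2 with the smaller p stood at -1.14 and -0.75 with UV-B and at -1.25 and -0.95 without. Its line difference was -1.02 (SE 0.11, 2.03-fold, adjusted p = 0.000106 by limma). The other called probe stood at -2.29 and -1.23 with UV-B and at -1.23 and -1.36 without, a line difference of -1.53 (SE 0.17). All 8 of these values were on the negative side. The other probes of thi2 stood at -0.21 and -0.17 and those of thi1 at -0.08 and -0.07, and none of these passed. The genes are close copies, so a probe of either can bind RNA of both.

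Defence and wound response was called in 4 of 13 probes (30.8%, beside 8.2% of all probes), 3 negative and 1 positive. The list median was -0.15. The cystatin gene psei2, an inhibitor of cysteine proteases, stood at -0.70 and -0.87 with UV-B and at -0.56 and -0.76 without, a line difference of -0.72 (SE 0.10, adjusted p = 0.000978 by limma). The oxophytodienoate reductase gene opr6, of the family that includes the jasmonate synthesis enzyme, stood at -0.69 and -1.01 with UV-B and at -0.71 and -0.81 without (-0.81, SE 0.17). The chitinase gene chn1, which breaks down fungal cell walls, stood at -1.07 and -0.39 with UV-B and at -0.95 and -0.75 without (-0.79, SE 0.14). In each of these genes the 4 arrays were negative and the treatments overlapped. The call of opr6 was lost without the second array with UV-B (-0.63) or without UV-B (-0.70), and that of chn1 without the first array without UV-B (-0.74, adjusted p = 0.0646). The beta-glucosidase gene glu1, which frees the benzoxazinoid toxins of maize from their sugars, was the positive member at 1.16 and 0.84 with UV-B and 0.58 and 0.85 without (0.86, SE 0.13, adjusted p = 0.00117 by limma). Its other probe stood on the negative side at -0.16 and did not pass. The allene oxide synthase gene aos1, which acts before the reductases in jasmonate synthesis, stood at -0.07 (SE 0.11) and did not pass. The pathogenesis-related gene pr5 stood at -0.10 and did not pass.

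Among stress genes, asr1, a gene induced by abscisic acid, drought and ripening, stood at -1.03 and -0.95 with UV-B and at -0.51 and -1.24 without. Its line difference was -0.93 (SE 0.14, 1.91-fold, adjusted p = 0.00147 by limma). It was the only call of the 4 probes (25.0%, beside 8.2% of all) in the list of abscisic acid, cold and drought response, whose median was 0.0097. In the antioxidant and detoxification list 1 of 12 probes was called (8.33%, near the share of all probes, list median -0.19). It belonged to GST39, a glutathione S-transferase, at -0.78 and -0.69 with UV-B and at -1.41 and -0.73 without (-0.90, SE 0.15, adjusted p = 0.00185). The catalase gene cat1 (-0.43), the ferritin gene fer1 (-0.28) and the superoxide dismutase gene Sod4A (-0.24) did not pass. The cysteine protease gene see1, known from senescing leaves and in no list, stood at -0.53 and -0.76 with UV-B and at -1.05 and -0.85 without (-0.80, SE 0.10, adjusted p = 0.000468 by limma). The call of each of asr1, GST39 and see1 remained without each of the 4 arrays. Without moderation of the variances the calls of asr1 and GST39 were lost (adjusted p = 0.0721 and 0.0774), and that of GST39 was also lost with array weights (adjusted p = 0.0649).

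Chaperones and disulfide isomerases were called in 4 of 10 probes (40.0%, beside 8.2% of all probes), 3 negative and 1 positive. The list median was -0.14. On the negative side were PDIL1-1 (-0.63, SE 0.12) and PDIL1-2 (-0.48 and -0.48 on 2 of its 3 probes, SE 0.12 each), isomerases that form disulfide bonds in the endoplasmic reticulum. The positive one was hsp101, a chaperone that dissolves protein aggregates after heat, at 0.50 and 0.51 with UV-B and 0.25 and 0.66 without (0.48, SE 0.12, adjusted p = 0.0234 by limma). The calls of PDIL1-1 and hsp101 were lost without either array without UV-B (-0.66 and -0.61, and 0.50 and 0.47), and hsp101 also without the first array with UV-B (0.37). The call of PDIL1-2 was lost without the first array without UV-B (-0.32) and without the second array with UV-B (-0.38). The calreticulin gene crt2 (-0.14), the calnexin gene CNX (-0.14) and hsp70-4 (-0.03) did not pass.

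**Figure D2:**
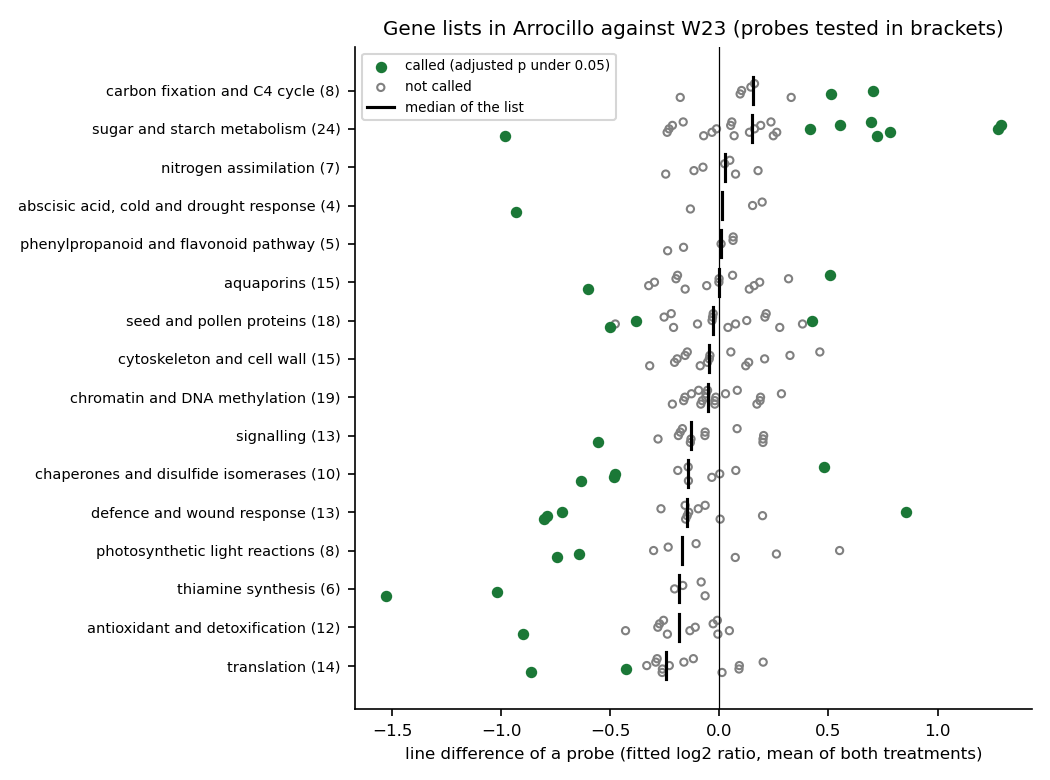
Line difference (fitted log2 ratio, mean of both treatments) of each named probe by gene list, with the number of probes tested in brackets. Filled points were called, open points were not, and the tick is the median of the list. Calls of sugar and starch metabolism are on the positive side in 7 of 8 probes, which belong to 5 genes. Both calls of thiamine synthesis are negative and belong to thi2, and 4 lists hold no called probe.

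The remaining leading genes were in no list. LOC541942, which has no role in the annotation used here, had the largest negative value of the named genes by leading probe, at -1.37 and -1.40 with UV-B and -0.63 and -1.71 without. Its line difference was -1.28 (SE 0.14, 2.43-fold, adjusted p = 0.000151 by limma), and the call remained without each of the 4 arrays (-1.44 to -1.12). On the positive side cda1 stood at 1.08 and 0.81 with UV-B and at 0.68 and 0.78 without (0.83, SE 0.11, adjusted p = 0.000371). The phosphoenolpyruvate translocator gene ppt1, which carries phosphoenolpyruvate across the chloroplast envelope, stood at 0.59 and 0.80 with UV-B and 0.57 and 0.44 without (0.60, SE 0.10). LOC100101527 (0.66, SE 0.16) and LOC542560, listed in the reference under the synonym pOMT1 (0.59, SE 0.13), were called as well. Calls were lost without the first array without UV-B for ppt1 (0.56, adjusted p = 0.0516), and for LOC100101527 and LOC542560 without the first array with UV-B (0.50 and 0.55) or either array without UV-B (0.56 and 0.77, and 0.60 and 0.58).

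In the remaining lists calls were few, and 4 lists had none. Aquaporins were called in 2 of 15 probes (13.3%, beside 8.2% of all probes). These were the plasma membrane channel PIP1-1 at 0.51 (SE 0.12) and the vacuolar channel TIP4-1 at -0.60 (SE 0.17). The other probe of PIP1-1 stood at -0.20, the call of PIP1-1 was lost without the first array with UV-B (0.37) or either array without UV-B (0.44 and 0.58), and the call of TIP4-1 was lost without the first array with UV-B (-0.33), the first (-0.76) or the second (-0.45) without. Translation was called in 2 of 14 probes (14.3%), both negative, with the lowest list median (-0.25). These were the ribosomal protein gene RP-P0 (-0.43, SE 0.11), whose call was lost without either array without UV-B (-0.44 and -0.42) or the second with UV-B (-0.33), and the initiation factor gene EIF5 (-0.86, SE 0.18). EIF5 was measured on 2 of the 4 arrays, both with W23 in channel 1, at -0.66 with and -0.68 without UV-B. Its fitted value lies beyond both, since the channel term was estimated on the arrays of the other landraces, and without that term it was -0.67 and not called (adjusted p = 0.124 by limma). In signalling 1 of 13 probes was called (7.69%), the protein phosphatase gene PP1 at -0.56 (SE 0.11), with its other probe at 0.20. The call of PP1 was lost without the first array without UV-B (-0.50), and with the sign turned PP1 was called on the other side (0.36, adjusted p = 0.0489). No probe was called among the 19 of chromatin and DNA methylation, the 15 of cytoskeleton and cell wall, the 7 of nitrogen assimilation and the 5 of the phenylpropanoid and flavonoid pathway. With the sign turned 1 probe of chromatin and DNA methylation and 2 of nitrogen assimilation were called, and with sections of the array centred 2 of cytoskeleton and cell wall. The phenylalanine ammonia-lyase gene PAL1, the entry to flavonoids and lignin, stood at -0.51 and 0.29 with UV-B and at -0.02 and -0.41 without (-0.16, SE 0.14, adjusted p = 0.576 by limma), and at 0.08 without the first array with UV-B.

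A ratio gives no level, so the leaf label could not be checked from how strongly leaf genes were expressed. Of the leaf markers, rca1 of the bundle sheath was called, and pdk1 and Cab-m7 of the mesophyll and ssu1 of the bundle sheath were not. Among seed and pollen proteins, which mark other organs, 3 of 18 probes were called (16.7%, beside 8.2% of all probes) with a list median of -0.03. The embryo storage protein gene globulin-1 was at -0.01 and 0.54 with UV-B and at 0.12 and 1.05 without (0.42, SE 0.10), with its other probe at -0.25. The pollen polygalacturonase gene pgl1 was called on 2 of 7 probes (-0.50 and -0.38), and its 7 probes ranged from -0.50 to 0.28. The call of globulin-1 was lost without either first array (0.39 with and 0.51 without UV-B) or the second without UV-B (0.34), and that of the leading pgl1 probe without either array without UV-B (-0.52 and -0.49) or the second with UV-B (-0.29). What part these organs had in the result was not tested.

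**Figure D3:**
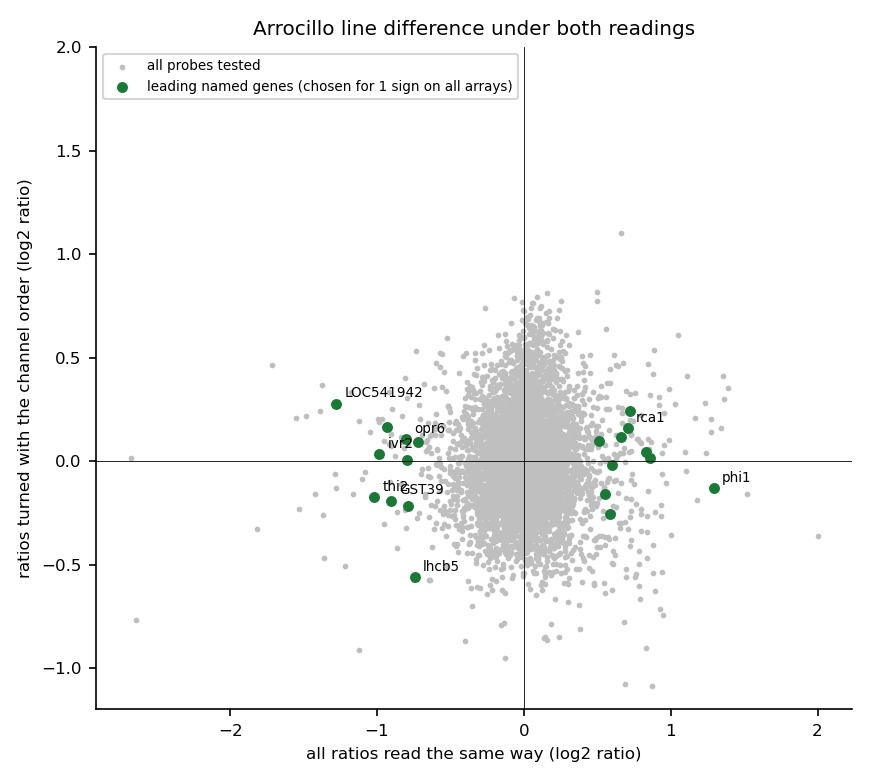
Line difference of each probe with every ratio read the same way (x axis) and with the sign turned by channel order (y axis), both as log2 ratios. The 20 leading named genes, chosen for having the same sign on all arrays, lie between -1.28 and 1.29 on the x axis, and on the y axis only lhcb5, at -0.56, lies beyond 0.28 from 0.

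With UV-B alone the line difference was called in 144 of 5353 probes (2.69%), 72 on each side (1.35%), and without UV-B in 211 (3.94%), 145 positive (2.71%) and 66 negative (1.23%). Both counts rest on 2 arrays each. The probes called under both treatments numbered 65, which is 45.1% of those with UV-B and 30.8% of those without, and 63 of them lay on the same side. Called under both were phi1, thi2, LOC541942, cda1, glu1, asr1, psei2, see1 and the leading probe of ivr2. Among these, the probe of thi2 with the largest value stood at -1.76 with and -1.30 without UV-B (SE 0.24 each), and phi1 at 1.39 and 1.19 (SE 0.22 each). The gene pfk1 was called with UV-B (0.98, SE 0.19, adjusted p = 0.0133 by limma) and stood at 0.47 without (adjusted p = 0.231). The gene rca1 was called without UV-B (0.90, SE 0.15, adjusted p = 0.00573 by limma) and stood at 0.51 with it (adjusted p = 0.114). Neither difference between the treatments passed, being 0.51 (95% interval -0.06 to 1.08) for pfk1 and -0.39 (-0.86 to 0.08) for rca1. The counts turned on single arrays. Calls with UV-B fell to 37 without the first array with UV-B, and calls without UV-B fell to 10 and 7 without the first and the second array without UV-B. Not centring the arrays moved the median with UV-B to -0.10 and the share of positive calls with UV-B from 50.0% to 33.6% (of 110).

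**Figure D4:**
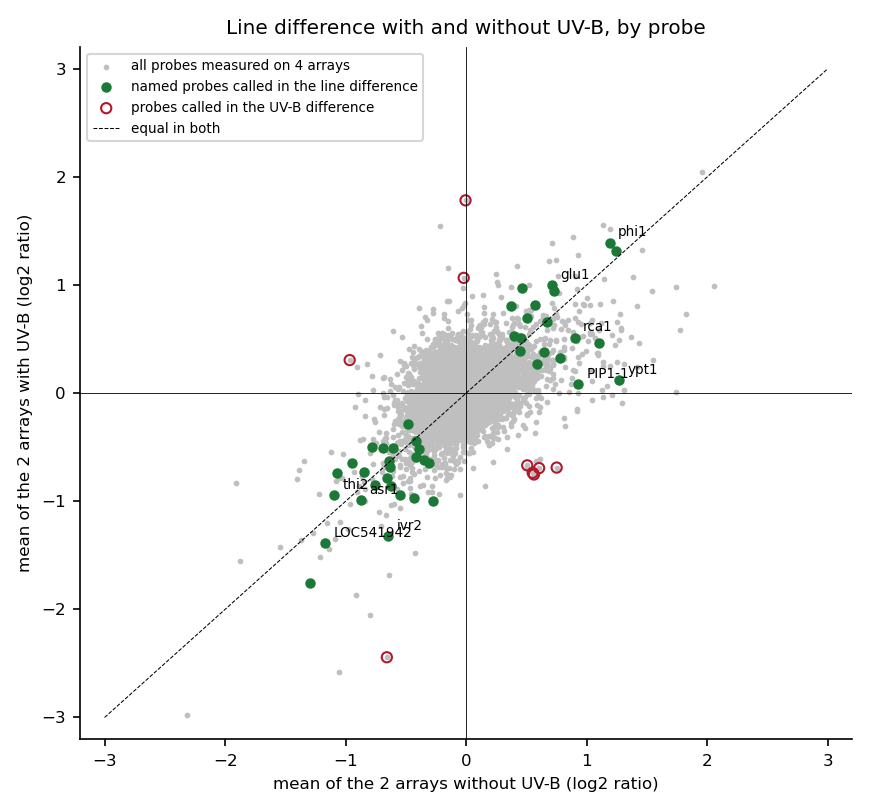
Mean log2 ratio of the arrays with UV-B (y axis) against that of the arrays without UV-B (x axis), for probes measured on all 4 arrays. Green points are named probes called in the line difference, red rings the 9 probes called in the difference between the treatments, and the dashed line marks equal values. Among the leading genes, all chosen for the same sign on every array, phi1 lies near the dashed line and the leading probe of ivr2 away from it, and 6 rings lie where the sides differ.

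The dependence of the line difference on UV-B, with minus without, was called in 9 of 5353 probes (0.168%), 3 positive (0.056%) and 6 negative (0.112%), and none of the 9 had a gene name. At an unadjusted p under 0.05 there were 326 probes. The smallest adjusted p was 0.0461 by limma, and the 95% interval of a probe reached 0.52 to either side at the median. Of the 9, 6 lay on one side on both arrays with UV-B and on the other on both arrays without. The largest negative one, at positions 15711 to 15713, stood at -2.30 and -2.59 with UV-B and at -0.39 and -0.93 without, a difference of -1.78 (SE 0.30). The next, at positions 4904 to 4906, stood at -0.54 and -0.84 with UV-B and at 0.64 and 0.86 without, a difference of -1.44 (SE 0.21). The largest positive one, at positions 15819 to 15821, stood at 2.34 and 1.22 with UV-B and at 0.51 and -0.53 without, a difference of 1.79 (SE 0.30). In each of these 3 probes the treatments did not overlap. The probe at positions 16797 to 16799 followed at 0.35 and 0.26 with UV-B and -1.14 and -0.80 without (1.27, SE 0.22). Conico also differed by treatment in some of these probes. At positions 15819 to 15821 it stood at 0.42 to 0.94 with UV-B and at -0.43 to -0.11 without. At 4904 to 4906 it stood at -0.10 to -0.01 and 0.01 to 0.32. At 16797 to 16799 the order was the other way (-0.85 to -0.41 and -0.14 to -0.04), and at 15711 to 15713 the ranges overlapped. Whether Arrocillo differed from Conico in this was not tested.

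The 9 calls were fragile and fewer than 9 independent genes may lie behind them. Of the 6 negative probes 4 had like values on all 12 arrays, with root mean square differences of 0.13 to 0.23 between any pair of them. The count fell to 0 without the first array with UV-B and without either array without UV-B, was 7 without the second array with UV-B, and fell to 0 without the arrays of Cacahuacintle or of Conico, which only lend their spread. It was 20 with sections of the array centred, and 8 of the 9 were among those. On Conico the 4 probes with like values also lay lower on both arrays with UV-B than on both without. At positions 8542 to 8544, Conico stood at -0.14 to 0.08 with UV-B and at 0.42 to 0.91 without. Cacahuacintle stood there at 0.79 on its 1 array with UV-B and at 0.49 to 0.52 without.

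**Figure D5:**
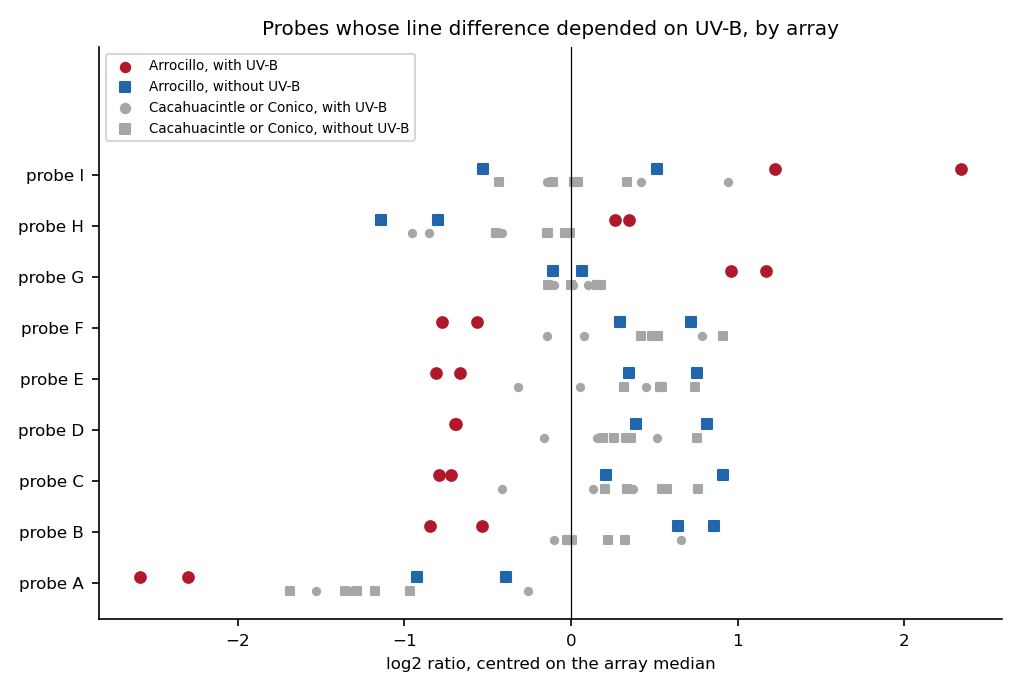
Centred log2 ratio of the 9 probes called in the UV-B dependence, lettered from the most negative to the most positive difference, on the 4 Arrocillo arrays (large points) and the 8 arrays of Cacahuacintle and Conico (small grey points). Arrays with UV-B are circles and arrays without are squares. In all 9 probes the Arrocillo arrays with UV-B lie apart from those without, which is what the test selects.

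No named gene passed in the dependence on UV-B in the fit of all 12 arrays. The closest was ypt1, a small GTPase of vesicle transport, at -0.38 and 0.62 with UV-B and at 0.73 and 1.81 without, a difference of -1.15 (SE 0.29, adjusted p = 0.294 by limma). The aquaporin PIP1-1 stood at 0.31 and -0.14 with UV-B and at 1.04 and 0.81 without (-0.85, SE 0.24, adjusted p = 0.403). In both genes the arrays with UV-B lay below those without, and in ivr2 the leading probe differed by -0.67 (SE 0.21) and the other by -0.64. The alpha-tubulin gene tua4 stood at -0.98 and -0.30 with UV-B and at 0.45 and 0.0007 without (-0.86, SE 0.30, adjusted p = 0.629). On the positive side LOC606456, with the synonym LAC1, differed by 1.15 (SE 0.44), but its arrays with UV-B stood at -0.56 and 1.05. LOC732756, with the synonym knox7, differed by 0.71 (SE 0.25), LOC542464 by 0.54 (SE 0.20), the cystatin gene psei3 by 0.83 (SE 0.33), and 1 probe of pgl1 by 0.74 (SE 0.30). TCTP stood at -0.61 (SE 0.21). With sections centred on the 4 Arrocillo arrays alone, a setting chosen after seeing the data, ypt1 (-1.09, adjusted p = 0.0239 by limma) and PIP1-1 (-0.96, adjusted p = 0.0463) passed. Several of these differences turned on the arrays with UV-B. Leaving out the second of them gave 0.33 for LOC606456, 0.34 for LOC732756 and 0.26 for psei3, and leaving out the first gave 1.97, 1.07 and 1.40. For tua4 the values were -1.47 without the second and -0.26 without the first. By list, 0 probes were called in any, and unadjusted p lay under 0.05 for 3 of 24 probes of sugar and starch metabolism, 2 of 15 of cytoskeleton and cell wall, and 0 of 5 of the phenylpropanoid and flavonoid pathway. PAL1 differed by 0.10 (95% interval -0.51 to 0.72).

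Against the mean of Cacahuacintle and Conico, landraces that were measured on the same table and may share W23 RNA with Arrocillo, no probe of Arrocillo was called (0%, 277 at an unadjusted p under 0.05, smallest adjusted p = 0.0515 by limma). The 95% interval reached 0.33 to either side at the median. Scaling the arrays or centring their sections gave 3 calls each, and leaving out the second Arrocillo array with UV-B gave 5. The titles give Cacahuacintle 1 array with and 3 without UV-B. Of the named genes see1 had the smallest p, with a difference of -0.60 (SE 0.13, 95% interval -0.88 to -0.32, adjusted p = 0.304). Its 4 Arrocillo arrays, from -1.05 to -0.53, lay below every array of the other landraces, from -0.39 to 0.04. As see1 was picked by its p in this comparison, such a separation goes with the choice and adds no support. How many other probes were separated in this way was not counted. The pollen expansin gene EXPB9 differed by 0.65 (SE 0.16), asr1 by -0.52 (SE 0.18) and glu1 by 0.46 (SE 0.16), and none passed. Without the first Arrocillo array with UV-B the differences were -0.26 for asr1 and 0.29 for glu1.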

How the data were processed

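The deposited table holds 1 log2 ratio per spot and array, and the series' design text describes models of line, array, treatment, dye and spot that the authors fitted to base-2 log intensities. Whether the deposited log2 values passed through them, and in which direction the ratio was taken, is not given in the sources used here. Blank spots (4.66% to 5.15% of an Arrocillo array) were taken as missing. Of 17296 spots, runs of 3 formed 5760 probes (median SD within a probe 0.037), which were averaged and centred on the array median. Array medians lay between -0.37 and 0.33 before centring. No 2 of the 12 columns repeated each other (smallest SD of a difference 0.213), and the number of arrays limits the precision.

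Probes measured on at least 75% of 12 arrays and on each group were fitted with limma 3.58.1 in R 4.3.3, with a coefficient per landrace and treatment and a term for the channel of W23 (5 residual degrees of freedom, moderated variances, two-sided tests). That term equals the replicate number of the titles, so it also served as the replicate block, and no samples were matched beyond it. On simulated data for the line difference over 5353 probes, 61% of probes shifted by 0.5 and 100% of those shifted by 1.0 were called, and 0.12% of unshifted ones. Array sections were 16 runs of consecutive spots. Differences between sections held 5.8% to 19.3% of the variance of an Arrocillo array. The simulation had independent noise and channel effects, but no section effects and no RNA shared between arrays. Its rates therefore do not give the share of false calls in these data.

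Names came from the platform annotation (404 probes with 1 gene, 2 with several, not named, 5354 without), and 314 of 329 genes were in the Zm-B73-REFERENCE-NAM-5.0 table, used for names only. Probes of gene families can bind related RNAs. The text names the 10 largest called genes per side with the same sign on all arrays (at least 3), up to 4 called genes per list, 12 genes whatever their values, and the 5 smallest p per side for UV-B dependence and for the difference from other landraces. Further genes of the lists (sh2, and genes given as not passing) were picked after their values were seen. Members and lists were chosen with earlier results of these data known.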

Additional observations from a re-analysis of the deposited data

Results flagged for a closer look

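The line difference of 9 probes differed between arrays with and without UV-B by limma's test of that difference (adjusted p of 0.0461 to 0.0491). The values, with minus without UV-B, were 1.79, 1.27 and 1.09 on the positive side and -1.78, -1.44, -1.32, -1.30, -1.29 and -1.17 on the negative side. The 4 probes at -1.32, -1.30, -1.29 and -1.17 are those with like values on all 12 arrays.

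The alpha-tubulin gene tua4, at -0.86, was on the negative side on both arrays with UV-B and on the positive side on both without. Its second array without UV-B lay almost at 0, so its side there is not settled. Leaving out 1 array gave differences from -1.47 to -0.26. That sign pattern was not tested as such, and the difference did not pass in the fit (adjusted p = 0.629 by limma). Of 5285 probes measured on all 4 arrays, 196 (3.71%) had opposite sides by treatment.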

How the results depend on the processing

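Counts of called probes varied with the setting, and the cause was not tested. For the line difference (439 probes) the count was 286 without centring, 764 with array sections centred, 102 with array weights, 114 without moderation, and 810 with sections centred on the 4 Arrocillo arrays alone, a setting chosen after seeing the data. The main fit held the channel term, which is also the replicate block, and matched no samples beyond it. Without that term the counts were 206 for the line difference, 54 with UV-B, 60 without UV-B and 0 for UV-B dependence. With UV-B (144) the count was 311 with sections centred, 2 with weights, 8 without moderation, 4 with the sign turned by channel order and 402 under the added setting. Without UV-B (211) it was 114 without centring, 391 with sections, 103 with weights, 1 without moderation, 0 with the sign turned (limma, 952 at an unadjusted p under 0.05) and 443 under the added setting. For UV-B dependence (9) it was 0 without centring, with scaling, with weights, with the sign turned and without the arrays of Cacahuacintle or of Conico, where limma gave 85 to 373 probes at an unadjusted p under 0.05. It was 1 without moderation, 20 with sections centred and 40 under the added setting. Against the other landraces (0) it was 3 with scaling, 3 with sections and 1 with probes measured on all arrays. Leaving out 1 Arrocillo array gave 153 to 469 for the line difference, 37 to 159 with UV-B, 7 to 306 without, 0 to 7 for UV-B dependence and 0 to 5 against the other landraces.

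Of the 39 named genes called in the line difference, 31 were picked by the naming rule, which leaves out sh2, por, sir and pht7. Of these 31, 19 lost the call without at least 1 array, 11 kept it without each, and EIF5 was measured on 2 arrays only. With the sign turned by channel order, lhcb5 kept its call. In that reading the line difference changed sign for phi1 (-0.13), ppt1 (-0.020), LOC542560 (-0.26), spp1 (-0.16), LOC541942 (0.28), ivr2 (0.035), asr1 (0.16), opr6 (0.11), see1 (0.007), psei2 (0.092), TIP4-1 (0.23), PDIL1-1 (0.041), hsp101 (-0.10), ftr1 (0.066), globulin-1 (-0.37), pgl1 (0.23), PP1 (0.36), RP-P0 (0.026), psbs1 (-0.029), aos1 (0.20) and pdk1 (-0.29). The UV-B dependence changed sign for LOC732756 (-0.31), LOC606456 (-0.90), psei3 (-0.66), ypt1 (0.043), PIP1-1 (0.11), ivr2 (0.12) and TCTP (0.049), and the difference from the other landraces for LOC542360 (-0.30) and LOC732772 (-0.12). Leaving out 1 array changed the sign of 4 genes not called in the line difference, PAL1 (-0.41 to 0.080), psbs1 (-0.053 to 0.20), aos1 (-0.15 to 0.018) and pdk1 (-0.016 to 0.67).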

Other observations

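Probes of the same gene did not always lie on the same side. Of 53 named genes with more than 1 probe tested, 27 had probes on both sides of 0 in the line difference, and the range between probes of a gene was 0.24 at the median. The 95% interval of a single probe reached 0.26 to either side at the median, so lying on both sides need not be a disagreement. Of the 14 genes with more than 1 probe and a called probe, 2 had every probe called, phi1 on 1 side and ivr2 on both. The gene pht7 had a called probe at -0.64 and another at 0.17, and the beta-glucosidase gene glu1 one at 0.86 and another at -0.16. Genes with 1 probe have no such check. The genes named here were chosen after their values were seen.

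The gene por, which has no role in the annotation used here, and the sulfite reductase gene sir fall outside the naming rule and were also called, at -0.75 (SE 0.16) and -0.45 (SE 0.11). On por the arrays with W23 in channel 1 stood at -1.43 and -1.21 and the others at -0.46 and 0.11, so that por was called with the sign turned as well (-0.57, adjusted p = 0.0327). On sir the 4 arrays stood between -0.64 and -0.34.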
